A study of Mus musculus with 18 samples.

Results

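The guanylate-binding protein genes *Gbp2*, *Gbp3*, *Gbp4*, *Gbp5*, *Gbp6*, *Gbp7*, *Gbp8* and *Gbp9*, the transcription factor gene *Irf1* and the chemokine gene *Cxcl9* were followed across 18 mouse spleen RNA libraries. They were taken by gene symbol, 10 genes of the 19326 rows of the expression table, and each symbol had 1 row. All mice were of the ICR stock, which is outbred, and 10 weeks old, with 3 libraries in each of 6 groups. A first group received AOS at 10 mg/kg (taken to mean alginate oligosaccharide). The 4 groups that follow were on a high fat diet (HFD): with AOS at 10 mg/kg (HFD+AOS), with FMT (taken to mean a faecal microbiota transplant) from donors given AOS at 10 mg/kg (HFD+AOS-FMT), with FMT from control donors (HFD+control-FMT), or with the diet alone (HFD). The last group was the control. The labels give neither the route nor length of dosing, and whether each library stands for another animal is not stated, so p-values measure the spread between libraries, which may be technical.

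Guanylate-binding proteins are large GTPases that cells make in response to interferons, above all interferon gamma. In mice they gather on the vacuoles of intracellular parasites and on bacteria in the cytosol, and mice that lack the gene cluster on chromosome 3 control *Toxoplasma* poorly. Interferon gamma, released by T cells and NK cells, signals through its receptor and Janus kinases and switches on *Irf1*, whose promoter carries an element called GAS. IRF1 and relatives bind a second type of element, the ISRE, in genes that include the *Gbp* family. CXCL9 is secreted by macrophages, dendritic cells and stromal cells and draws in lymphocytes that carry the receptor CXCR3.

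The *Gbp* members lie in 2 clusters in the mm10 build, which GENCODE vM21 annotates as GRCm38. *Gbp5*, *Gbp7*, *Gbp3* and *Gbp2* lie in this order on the plus strand of chromosome 3, between 142493978 and 142638008. *Gbp8*, *Gbp9*, *Gbp4* and *Gbp6* lie on the minus strand of chromosome 5, between 105014150 and 105293698. *Irf1* lies on chromosome 11 (53770014 to 53778374, plus strand) and *Cxcl9* on chromosome 5 (92321347 to 92328079, minus strand). The annotated span of *Gbp8* holds that of *Gbp9*, and both cover nearly all of that of *Gbp4*. Of the 50-base stretches in *Gbp8* transcripts, 18.1% also occur in transcripts of another gene. That share was 70.7% for *Gbp6*, with 65.0% shared with the overlapping gene model *Gm43302*, and 12.7% for *Gbp7*. It was between 0.472% (*Cxcl9*) and 8.05% (*Gbp9*) for the other 7. How the authors counted reads that fit several genes is not given in the sources used here, so the level of *Gbp6*, and to a lesser degree of *Gbp8* and *Gbp7*, is uncertain. How reads in the overlapping spans of *Gbp4*, *Gbp8* and *Gbp9* were assigned is likewise not given.

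RefSeq promoter sequences (GRCm38.p6, 250 bases before to 50 bases after the start of transcription) were at hand for 6 members, *Gbp2*, *Gbp3*, *Gbp5*, *Gbp7*, *Irf1* and *Cxcl9*. They are shown because interferons are known to act through elements of the kinds in capitals, which are matches to the GAS core TTCNNNGAA (its own reverse complement) or to an ISRE core, GAAA and GAAA with any 2 bases between, on either strand (TTTC, any 2 bases, TTTC on the other). Of 32851 promoters of this length, 8.30% held a GAS match, 3.44% an ISRE match and 0.454% both. The 6 members had 8 promoters in all, since *Gbp3* and *Irf1* each had a second one with 0 matches. The promoter of *Gbp5* and that of *Gbp7* held both, that of *Gbp2* and the first of *Gbp3* an ISRE match, the first of *Irf1* a GAS match and that of *Cxcl9* 0 matches. The 5 promoters with a match lie at chr3:142620413-142620712 (*Gbp2*), chr3:142559794-142560093 (*Gbp3*), chr3:142496684-142496983 (*Gbp5*), chr3:142530086-142530385 (*Gbp7*) and chr11:53769764-53770063 (*Irf1*), all on the plus strand.
Gbp2: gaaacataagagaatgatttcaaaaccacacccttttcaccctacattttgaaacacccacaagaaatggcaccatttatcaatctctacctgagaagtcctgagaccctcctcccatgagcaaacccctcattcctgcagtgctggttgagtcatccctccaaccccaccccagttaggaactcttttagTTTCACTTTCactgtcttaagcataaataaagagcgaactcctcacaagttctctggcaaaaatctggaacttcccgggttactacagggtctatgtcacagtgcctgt
Gbp3: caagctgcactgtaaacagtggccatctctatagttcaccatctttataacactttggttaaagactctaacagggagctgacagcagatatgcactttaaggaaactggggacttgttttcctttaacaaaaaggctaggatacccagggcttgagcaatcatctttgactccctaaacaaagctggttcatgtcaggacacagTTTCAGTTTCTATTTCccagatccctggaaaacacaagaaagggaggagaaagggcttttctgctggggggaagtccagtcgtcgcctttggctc
Gbp5: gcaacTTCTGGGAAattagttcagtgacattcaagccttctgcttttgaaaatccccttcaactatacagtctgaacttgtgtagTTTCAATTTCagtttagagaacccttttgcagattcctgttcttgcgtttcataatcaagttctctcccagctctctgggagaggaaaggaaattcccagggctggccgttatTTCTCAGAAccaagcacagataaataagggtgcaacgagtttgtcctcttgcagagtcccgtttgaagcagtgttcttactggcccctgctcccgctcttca
Gbp7: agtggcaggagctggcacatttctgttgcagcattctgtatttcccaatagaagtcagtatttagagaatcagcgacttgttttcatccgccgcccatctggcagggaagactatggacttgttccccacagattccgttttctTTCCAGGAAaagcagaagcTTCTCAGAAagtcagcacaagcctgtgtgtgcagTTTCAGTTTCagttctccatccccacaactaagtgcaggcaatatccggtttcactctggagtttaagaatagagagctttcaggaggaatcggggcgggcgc
Irf1: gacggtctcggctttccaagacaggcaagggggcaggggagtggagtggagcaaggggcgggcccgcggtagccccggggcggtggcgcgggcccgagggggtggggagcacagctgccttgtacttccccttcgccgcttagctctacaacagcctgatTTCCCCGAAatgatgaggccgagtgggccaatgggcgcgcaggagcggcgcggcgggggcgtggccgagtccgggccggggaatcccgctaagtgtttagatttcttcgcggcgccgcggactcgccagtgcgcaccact
Counted from the start of transcription, the ISRE match began at position −59 in *Gbp2* and at −53 in *Gbp7*, and 2 overlapping matches began at −45 and −39 in *Gbp3*. In *Gbp5* the ISRE match began at −165. GAS matches began at −245 and −52 in *Gbp5*, at −106 and −87 in *Gbp7*, and at −90 in *Irf1*. A match is a description of letters and does not show that a factor bound there.

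The unit was taken to be FPKM, in which fragments are divided by transcript length and by sequencing depth, so levels of different genes can be set side by side. The absolute read depth behind them is unknown. Column totals ran from 627964 to 831448 FPKM. Between 10.8% (HFD replicate 3) and 34.4% (control replicate 1) of a library came from haemoglobin genes. A larger haemoglobin share leaves less of the total for every other gene. Markers of B cells, T cells, NK cells, dendritic cells and macrophages were above 0 in every group, as spleen should show. Tests below use log2(FPKM + 1) and limma, with p-values adjusted over all 12969 tested genes by the method of Benjamini and Hochberg. All 10 members passed the filter of a mean of 1 FPKM in at least 1 group. Fold changes of this kind slightly understate those of low genes. In whole spleen, more cells of a type and more RNA per cell cannot be told apart.

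Averaged over the 18 libraries, *Irf1* was the most abundant member at 64.9 FPKM, followed by *Gbp9* at 53.5 and *Gbp4* at 32.9. *Gbp2* averaged 28.7, *Gbp3* 22.8 and *Gbp7* 20.6 FPKM. The least abundant were *Gbp8* (16.4), *Gbp5* (15.8), *Cxcl9* (14.2) and *Gbp6* (12.4). The highest library exceeded the lowest by 1.73-fold for *Gbp7*, the steadiest member, and by 3.72-fold for *Gbp6*. Control replicate 1 was the lowest library for 6 members (*Gbp2*, *Gbp4*, *Gbp5*, *Gbp8*, *Gbp9*, *Irf1*), and AOS replicate 3 the highest for 6 (*Gbp3*, *Gbp4*, *Gbp5*, *Gbp6*, *Gbp7*, *Gbp9*). HFD+control-FMT replicate 1 was the highest for *Gbp2*, *Irf1* and *Cxcl9*.

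**Figure D1:**
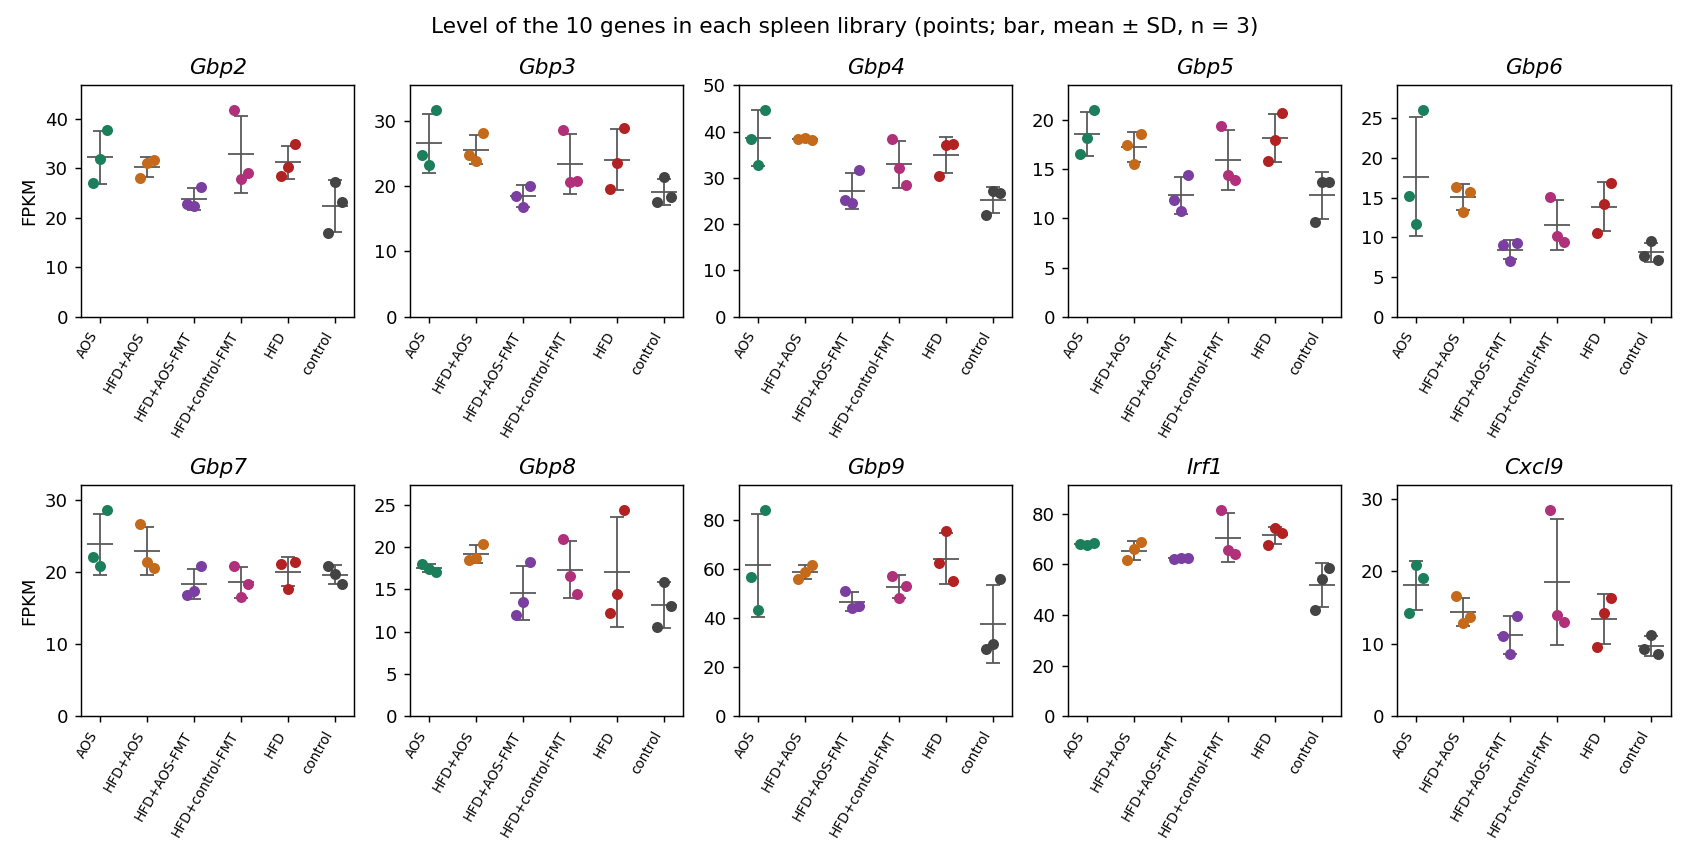
FPKM of the 10 genes (vertical axes, from 0) in each of the 18 libraries, grouped along the horizontal axis. Points are libraries and bars give the mean ± SD of 3. *Gbp7* differed least between groups, while AOS replicate 3 stood at 84.17 FPKM for *Gbp9* and HFD+control-FMT replicate 1 at 28.54 FPKM for *Cxcl9*.

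The group means fell into a similar order for most members. AOS had the highest or second highest mean for 9 of the 10 members (highest for 5, second for 4). HFD+AOS-FMT was next to lowest for 7 members and lowest for 3. The control was lowest for 7, next to lowest for 2 and one place above that for 1. The control stood above HFD+AOS-FMT for *Gbp3*, *Gbp5* and *Gbp7* only. Neighbours in this order mostly overlapped. Libraries of adjacent groups stood apart between HFD+AOS and HFD+AOS-FMT for *Gbp2*, between HFD+AOS and HFD for *Gbp4*, and between HFD+control-FMT and the control for *Gbp5*. They also stood apart between HFD+control-FMT and HFD+AOS-FMT for *Gbp6*, between HFD+AOS and AOS for *Gbp8*, and between HFD+AOS-FMT and the control for *Irf1*. For *Gbp3*, *Gbp7*, *Gbp9* and *Cxcl9* every pair of neighbours overlapped. An F test over the 6 groups called 0 of 10 members in limma, where 0.116% of the tested genes were called. At an unadjusted p under 0.05 it took 8 of 10, against 22% of tested genes. *Gbp4* came closest (limma F test, adjusted p = 0.0788), then *Gbp6* (0.0999) and *Gbp5* (0.107).

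**Figure D2:**
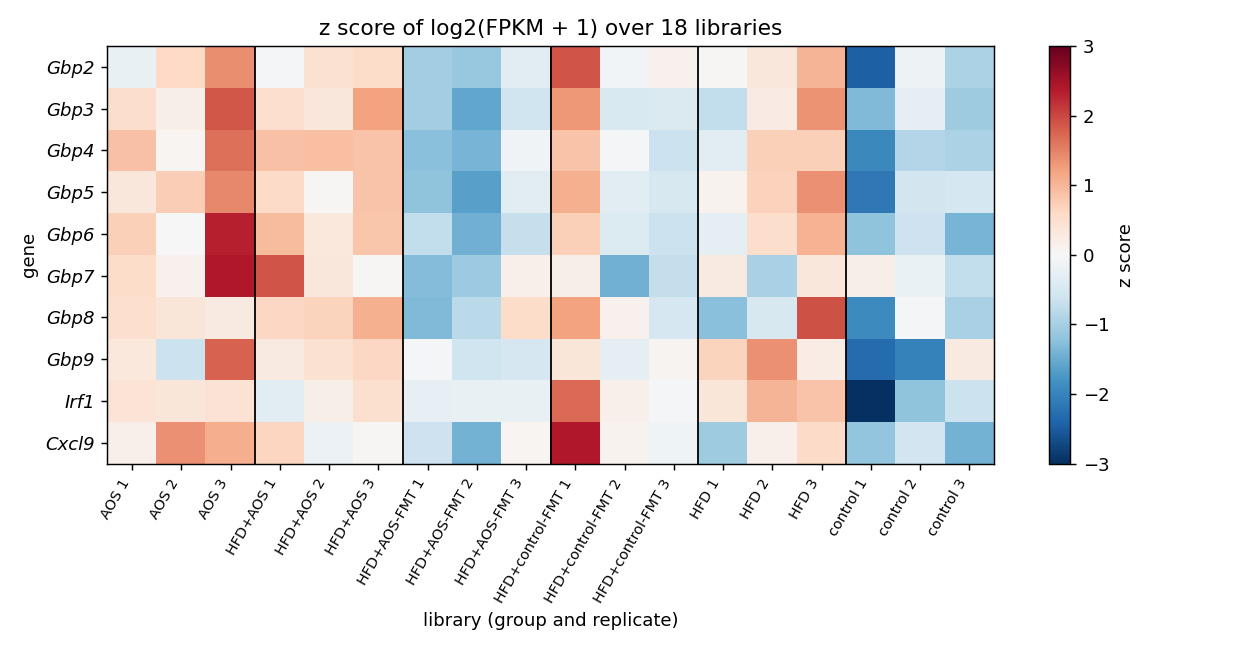
Colours give the z score of log2(FPKM + 1) of each gene (rows) over the 18 libraries (columns, groups divided by black lines), red for above and blue for below the gene's mean, on a scale that holds all values. Control replicate 1 is blue in most rows, with a mean z of −1.73, and AOS replicate 3 and HFD+control-FMT replicate 1 are red in most, at 1.46 and 1.17.

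The comparison of HFD with the control asked what the diet alone changed. *Irf1*, the transcription factor that relays the interferon gamma signal, rose on the diet, and it was the only member to pass. It stood at 67.76, 74.28 and 72.45 FPKM on HFD, against 41.96, 54.34 and 58.75 FPKM in controls. All HFD libraries lay above all control libraries, and the fold change was 0.47 ± 0.11 on the log2 scale (SE, n = 3 per group, limma adjusted p = 0.0450). Across all tested genes 2.75% were called, 1.46% as higher on the diet, against 1 member of 10. At an unadjusted p under 0.05, 6 of 10 members lay higher, against 19.5% of tested genes. The call of *Irf1* is marginal: with 1 of the 18 libraries left out at a time it passed in 5 fits and missed in 13 (adjusted p up to 0.210). Without HFD replicate 2, HFD replicate 3 or control replicate 1 the adjusted p of *Irf1* in limma was 0.208, 0.114 and 0.210, with log2 fold changes of 0.45, 0.46 and 0.33. With median ratio scaling its adjusted p was 0.0574 (log2 fold change 0.36).

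The other members lay higher on the diet without passing, so that 10 of 10 had a fold change above 0, as did 68.5% of tested genes. *Gbp4* stood at 30.41, 37.21 and 37.28 FPKM on HFD, against 21.99, 27.08 and 26.78 FPKM in controls (log2 fold change 0.45 ± 0.13 SE, n = 3, limma adjusted p = 0.0632). *Gbp5*, which in mice promotes assembly of the NLRP3 inflammasome, stood at 15.84, 17.95 and 20.76 FPKM on HFD, against 9.60, 13.74 and 13.76 FPKM in controls (0.53 ± 0.16, adjusted p = 0.0626). For both genes every HFD library exceeded every control library. *Gbp9* had the largest difference, 62.22, 75.28 and 54.90 FPKM on HFD against 27.31, 29.48 and 55.87 FPKM in controls (0.82 ± 0.24, limma adjusted p = 0.0602, n = 3). Control replicate 3 lay above HFD replicate 3, so the groups overlapped. With 1 of the 18 libraries left out at a time *Gbp9* passed in 1 fit, the one without control replicate 3 (1.14, limma adjusted p = 0.00486), and missed in 17. Without control replicate 1 it was at 0.63 (adjusted p = 0.282) and without HFD replicate 2 at 0.70 (0.228). *Gbp6* averaged 13.9 ± 3.14 FPKM on HFD and 8.11 ± 1.22 FPKM in controls (SD, n = 3 each), with no overlap. *Gbp2* averaged 31.2 ± 3.35 FPKM on HFD and 22.4 ± 5.25 FPKM in controls, again with no overlap, and its log2 fold change of 0.48 was 0.29 without control replicate 1. In all, 5 of 10 members had HFD libraries wholly above control libraries, against 14% of tested genes, and 0 wholly below, against 5.44%. *Gbp3*, *Gbp8* and *Cxcl9* overlapped (log2 differences of 0.30, 0.31 and 0.41). Without HFD replicate 3 they were at 0.17, 0.03 and 0.26, and without control replicate 1 *Gbp8* was at 0.17. *Gbp7* stood at 20.1 ± 2.06 FPKM on HFD and 19.7 ± 1.29 FPKM in controls (log2 fold change 0.03, 95% interval −0.25 to 0.30), and its sign turned with median ratio scaling (−0.08), quantile normalization (−0.04) and scaling to the total without haemoglobin (−0.01). The median over the 10 members was 0.46, against 0.10 over all tested genes, a difference of 0.36. Median ratio scaling brought the median of all genes to 0.00095, a shift of about that same 0.10.

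AOS alone, against the control, asked what dosing did without the diet. All 10 members lay higher in the AOS group, as did 62.4% of tested genes, yet 0 members and 0 genes of the table passed (0% called in limma). At an unadjusted p under 0.05, 8 of 10 members lay higher, against 10.2% of tested genes. The AOS libraries lay wholly above the control libraries for 7 of 10 members, against 11.7% of tested genes. *Gbp6* differed most, at 15.15, 11.70 and 26.08 FPKM with AOS against 7.67, 9.49 and 7.17 FPKM in controls (log2 fold change 0.97 ± 0.24 SE, n = 3, limma adjusted p = 0.122). AOS replicate 3 was far above the other AOS libraries, and without it the log2 fold change of *Gbp6* was 0.66. *Cxcl9*, the CXCR3 ligand, stood at 14.23, 20.84 and 19.10 FPKM with AOS, against 9.29, 11.26 and 8.56 FPKM in controls (0.82 ± 0.26, limma adjusted p = 0.181, n = 3). Here all AOS libraries were above all control libraries, and without AOS replicate 3 the value was 0.78. *Gbp4* had the smallest p of the members, at 38.49, 32.73 and 44.75 FPKM with AOS against 21.99, 27.08 and 26.78 FPKM in controls (0.59 ± 0.13, limma adjusted p = 0.102, n = 3). *Irf1* was nearly constant with AOS at 68.12, 67.70 and 68.49 FPKM, against 41.96, 54.34 and 58.75 FPKM in controls (0.41 ± 0.11, limma adjusted p = 0.135, n = 3). Without control replicate 1 it was at 0.27 (adjusted p = 0.314), and *Gbp2* (0.51 with all libraries) and *Gbp8* (0.41) were at 0.33 and 0.27.

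*Gbp9* overlapped between these groups, at 56.59, 43.42 and 84.17 FPKM with AOS against 27.31, 29.48 and 55.87 FPKM in controls (log2 fold change 0.72). Control replicate 3 and AOS replicate 3 pulled this value in opposite directions: without control replicate 3 it was 1.04 (limma adjusted p = 0.0203), and without AOS replicate 3 it was 0.47 (adjusted p = 0.581). *Gbp3*, *Gbp5* and *Gbp8* did not overlap, with log2 fold changes of 0.45, 0.56 and 0.41, while *Gbp2* (0.51) and *Gbp7* (0.25) did. The smallest member difference was that of *Gbp7* (95% interval −0.02 to 0.53). The median over the members was 0.54 and that over all tested genes 0.05. Without control replicate 3 limma called 3 members higher (*Gbp4*, *Gbp9* and *Irf1*) among 304 genes of the table, and without AOS replicate 2 it called 2 (*Gbp4* and *Gbp6*) among 69 genes. This comparison and that of HFD with the control use the same 3 control libraries, so their values are not independent of each other.

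**Figure D3:**
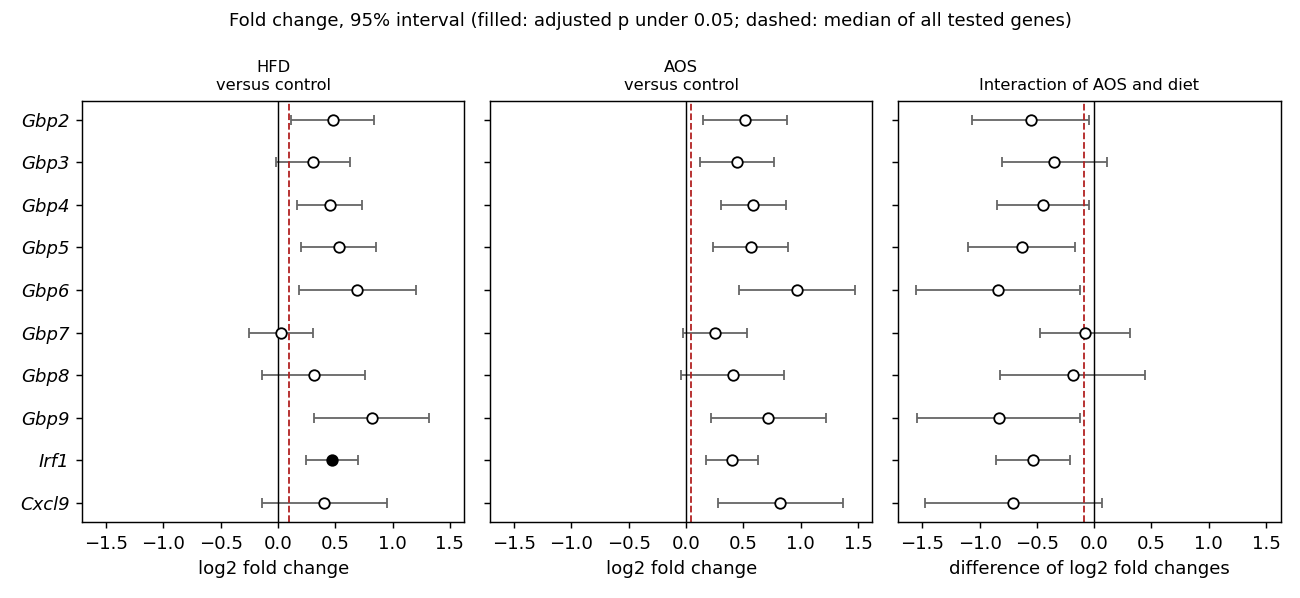
Horizontal axes give log2 fold changes (points) with 95% intervals (bars) for HFD against control and for AOS against control, and the difference of 2 log2 fold changes for the interaction of AOS and diet. *Irf1* on HFD is the only filled point (adjusted p under 0.05), *Gbp7* lies near 0 on HFD at 0.03, and all 10 members lie above 0 for AOS.

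Whether AOS and the diet added up on the log2 scale was tested by their interaction. The interaction, the effect of AOS on the diet minus its effect off the diet, was below 0 for all 10 members (34.8% of tested genes were above 0), with a median of −0.54 against −0.09 over all tested genes. Limma called 0 members and 0 genes of the table (0%), and at an unadjusted p under 0.05 it took 6 of 10 members as lower, against 10.1% of tested genes. *Irf1* had the smallest p (−0.53 ± 0.15 SE, 95% interval −0.85 to −0.21, limma adjusted p = 0.221). *Gbp6* stood at −0.84 (95% interval −1.56 to −0.12) and *Gbp9* at −0.83 (−1.54 to −0.12). *Gbp7* was at −0.08, and its sign turned with median ratio scaling (0.02). The same control libraries enter this contrast, and without control replicate 1 the members' median was −0.38. In the same contrast 7 of 7 T cell markers (median −0.69) and 5 of 7 B cell markers (−0.49) lay lower at an unadjusted p under 0.05, and 7 of 8 erythroid markers lay higher (1.15), with 0 called in limma. Their part in the members' values was not tested.

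On the diet, AOS was set against HFD alone. The members' log2 differences ran from −0.13 (*Irf1*) to 0.22 (*Gbp8*): 6 of 10 lay higher with AOS (41.9% of tested genes did), 0 passed in limma (0% of all genes) and 0 reached an unadjusted p under 0.05, against 15% of tested genes. With replicate number as a block in the fit of all 6 groups, limma called 33 genes and again 0 members. *Irf1* stood at 61.55, 65.98 and 68.83 FPKM in HFD+AOS, against 67.76, 74.28 and 72.45 FPKM in HFD (log2 fold change −0.13, 95% interval −0.35 to 0.10). The 2 groups overlapped. *Cxcl9* stood at 16.64, 12.83 and 13.71 FPKM in HFD+AOS, against 9.63, 14.25 and 16.31 FPKM in HFD (0.12, 95% interval −0.43 to 0.66). *Gbp4* was the single member with no overlap, at 38.49, 38.56 and 38.23 FPKM in HFD+AOS against 30.41, 37.21 and 37.28 FPKM in HFD (0.14, 95% interval −0.15 to 0.42). Of all tested genes 6.42% lay wholly higher. The intervals of *Gbp6* (−0.38 to 0.64) and *Gbp9* (−0.62 to 0.39) left room for changes of either sign. The median over the members, 0.11, was −0.06 without HFD replicate 1.

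FMT from AOS-treated donors, set against HFD alone, asked whether the transplant altered what the diet did. All 10 members lay lower in HFD+AOS-FMT than in HFD (32.5% of tested genes lay higher), by a median of −0.35 against −0.07 over all tested genes, and 0 passed in limma (0% of all genes). At an unadjusted p under 0.05, 5 of 10 members lay lower (*Gbp2*, *Gbp3*, *Gbp4*, *Gbp5* and *Gbp6*), against 9.09% of tested genes. *Gbp5* stood at 11.84, 10.79 and 14.42 FPKM in HFD+AOS-FMT, against 15.84, 17.95 and 20.76 FPKM in HFD (log2 fold change −0.52 ± 0.16 SE, n = 3, limma adjusted p = 0.263). *Gbp6* stood at 9.03, 7.02 and 9.25 FPKM in HFD+AOS-FMT, against 10.59, 14.18 and 16.85 FPKM in HFD (−0.64 ± 0.24, limma adjusted p = 0.284, n = 3). Neither gene overlapped between the groups. *Gbp2* stood at 22.71, 22.26 and 26.22 FPKM in HFD+AOS-FMT, against 28.38, 30.22 and 34.87 FPKM in HFD (−0.38, limma adjusted p = 0.352, n = 3). *Irf1* stood at 62.26, 62.49 and 62.40 FPKM in HFD+AOS-FMT, the tightest group of any member, against 67.76, 74.28 and 72.45 FPKM in HFD (−0.19, limma adjusted p = 0.428, n = 3). The HFD+AOS-FMT libraries lay wholly below the HFD libraries for 5 of 10 members (*Gbp2*, *Gbp5*, *Gbp6*, *Gbp9* and *Irf1*), against 16.7% of tested genes. *Gbp7*, *Gbp8* and *Cxcl9* had intervals that spanned 0 widely, that of *Cxcl9* running from −0.78 to 0.31.

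FMT from control donors was set against HFD in the same way. In HFD+control-FMT 3 of 10 members lay higher than in HFD (*Gbp2*, *Gbp8* and *Cxcl9*), against 44.4% of tested genes, and the members' median was −0.06. Limma called 0 members, where it called 0.0154% of tested genes, and 0 members reached an unadjusted p under 0.05, against 4.63% of tested genes. *Cxcl9* differed most, at 28.54, 14.05 and 13 FPKM in HFD+control-FMT against 9.63, 14.25 and 16.31 FPKM in HFD (log2 fold change 0.38, 95% interval −0.16 to 0.93). This came from HFD+control-FMT replicate 1, without which the value was 0.04. *Irf1* stood at 81.67, 65.73 and 64.06 FPKM in HFD+control-FMT, against 67.76, 74.28 and 72.45 FPKM in HFD (−0.03, 95% interval −0.25 to 0.20). Replicate 1 again stood above the others, and the groups overlapped.

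The direct comparison of the donors, HFD+AOS-FMT against HFD+control-FMT, had all 10 members lower with FMT from AOS donors (34.7% of tested genes lay higher), by a median of −0.29 against −0.05 over all tested genes. *Gbp7* was at −0.02 there, and its sign turned with median ratio scaling (0.03), quantile normalization (0.02) and scaling to the total without haemoglobin (0.0073). Limma called 0 members, where it called 0.00771% of tested genes, and 3 of 10 members (*Gbp2*, *Gbp5* and *Cxcl9*) lay lower at an unadjusted p under 0.05, against 6.6% of tested genes. *Gbp2*, which in mice coats the vacuole of *Toxoplasma*, stood at 22.71, 22.26 and 26.22 FPKM in HFD+AOS-FMT, against 41.78, 27.77 and 28.91 FPKM in HFD+control-FMT (−0.43 ± 0.17 SE, limma adjusted p = 0.399, n = 3). *Cxcl9* stood at 11.14, 8.62 and 13.80 FPKM in HFD+AOS-FMT, against 28.54, 14.05 and 13 FPKM in HFD+control-FMT (−0.62 ± 0.26, limma adjusted p = 0.427, n = 3). *Gbp2* did not overlap and *Cxcl9* did. HFD+control-FMT replicate 1 weighed on both: without it *Gbp2* was at −0.25, *Cxcl9* at −0.27 and the members' median at −0.16. The HFD+AOS-FMT libraries lay wholly below those of HFD+control-FMT for 4 of 10 members (*Gbp2*, *Gbp3*, *Gbp6* and *Irf1*), against 15.6% of tested genes. The 3 comparisons with HFD share its libraries, and the comparison of the 2 kinds of donor shares its libraries with 2 of them.

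**Figure D4:**
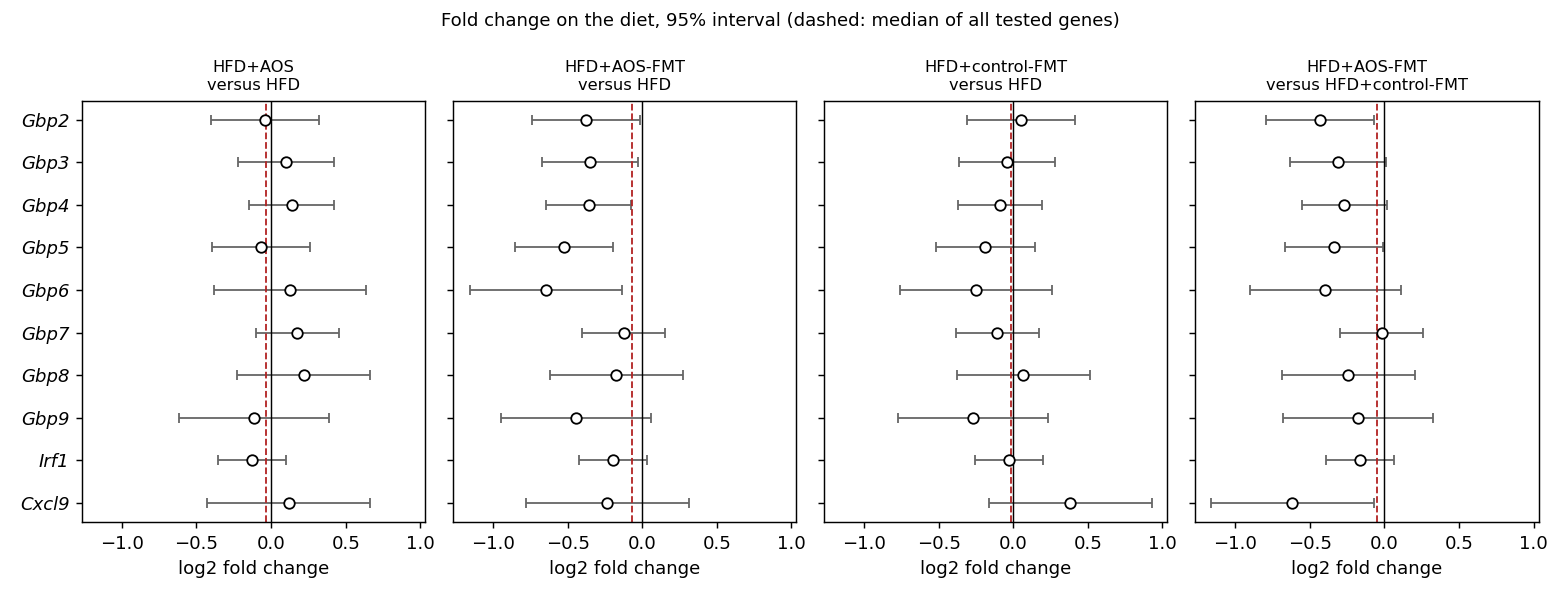
Log2 fold changes (horizontal axes) with 95% intervals for the 10 genes in 4 comparisons on the diet. No point is filled, since none passed. The points for HFD+AOS-FMT lie below 0 against HFD and against HFD+control-FMT, while those for HFD+AOS and HFD+control-FMT lie on both sides of 0.

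The members varied together across libraries. Over the 18 libraries all 45 pairs of members had a Pearson r of log2(FPKM + 1) above 0, from 0.06 to 0.95 with a median of 0.72. After the group means were subtracted the median was 0.63, and 42 of 45 pairs stayed above 0. These are descriptions, since the libraries share composition and scaling. Pairs across the 2 *Gbp* clusters were as alike (median r 0.77 over 16 pairs) as pairs within the chromosome 3 cluster (0.74 over 6) or within the chromosome 5 cluster (0.70 over 6). The closest pair was *Gbp3* and *Gbp6* (r = 0.95, Spearman rho = 0.95), which lie on different chromosomes. *Irf1* was most like *Gbp2* (r = 0.84), *Cxcl9* also most like *Gbp2* (0.82), and *Gbp9* most like *Irf1* (0.76). *Gbp7*, whose promoter holds 2 GAS matches and an ISRE match in the sequence printed above, was the least like the rest, with a median r of 0.44 to the other members. For *Gbp5*, whose promoter also holds both kinds, that median was 0.78, and a relation of matches to likeness was not tested.

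Outside the members, genes were ranked by how like their pattern was to the mean of the members' z scores over the 18 libraries. *Iigp1*, an interferon-induced GTPase of another family, was among the closest (Pearson r = 0.97, Spearman rho = 0.95), then *Pou2af1*, a coactivator of B cells (r = 0.95, rho = 0.93). *Psme1*, a subunit of the proteasome activator, was at r = 0.93 and rho = 0.89. *Aif1*, a gene of macrophages, was at r = 0.92 and rho = 0.90, and *Npc2*, a lysosomal carrier of cholesterol, at r = 0.92 and rho = 0.94. *Gm12250* (r = 0.92, rho = 0.97) and *Calhm6* (r = 0.91, rho = 0.92) came after these. Across all 12958 tested genes outside the members the median r was 0.20.

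Upstream of the members, interferon gamma itself was low in every library. *Ifng* stood at 1.25, 1.68 and 1.89 FPKM with AOS and at 0.84, 1.38 and 2.26 FPKM on HFD, against 0.68, 1.15 and 1.88 FPKM in controls. The 3 groups overlapped widely. *Tbx21*, the factor of interferon gamma-producing T cells and NK cells, averaged 9.16 ± 1.54 FPKM with AOS and 7.22 ± 1.10 FPKM on HFD, against 5.03 ± 1.23 FPKM in controls (SD, n = 3 each). The median over the 9 listed genes of the ligand, receptor and signalling chain was 0.08 with AOS and 0.28 on HFD. Of the 9, limma called 0 in either comparison. With p unadjusted and under 0.05, 3 lay higher with AOS, where 10.2% of tested genes did, and 5 on HFD, where 19.5% did.

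Other genes induced by interferon gamma lay on the same side as the members. Of 25 listed (the list was drawn up with earlier results known), 22 were tested, and on HFD against the control 4 of them rose, where 1.46% of tested genes did, and 0 fell (median log2 fold change 0.45, with 21 of 22 above 0). Like every call of this comparison, these 4 were lost when control replicate 1 was left out, where limma called 0 genes of the table. The 4 were *Nlrc5*, which switches on MHC class I genes (0.75, limma adjusted p = 0.0443), *Psmb10* (0.37, 0.0452) and *Psmb8* (0.53, 0.0469), both of the immunoproteasome, and *Tap1*, a peptide transporter (0.63, 0.0461). With AOS 22 of 22 lay above 0, by a median of 0.60, with 0 called in limma. At an unadjusted p under 0.05, 17 of them lay higher, against 10.2% of tested genes. *Gbp10*, a family member outside the 10 here, had the smallest p of these at 12.43, 8.03 and 20.03 FPKM with AOS, against 2.99, 4.33 and 5.21 FPKM in controls (1.42, limma adjusted p = 0.0921, n = 3). In HFD+AOS-FMT against HFD, 1 of 22 lay above 0 (median −0.30) and 0 passed. At an unadjusted p under 0.05, 7 lay lower, against 9.09% of tested genes. Genes induced by type I interferon lay higher with AOS by a median of 0.89 (15 of 16 tested) and on HFD by 0.48 (12 of 16), and limma called 0 in either. With p unadjusted and under 0.05, 9 lay higher with AOS, where 10.2% of tested genes did. On HFD 1 lay higher, where 19.5% did, and 1 lower. The 16 summed to 540.0, 308.0 and 1277.6 FPKM with AOS, against 459.1, 330.2 and 273.8 FPKM in controls. AOS replicate 3 stood far above the others, and AOS replicate 2 lay within the control range. Within HFD the type I list lay lower with FMT from AOS donors (median −0.76, 15 of 16 below 0, 0 past the threshold). At an unadjusted p under 0.05, 6 of 16 lay lower, against 9.09% of tested genes. With FMT from control donors 1 of 16 lay above HFD (median −0.40). There 0 reached an unadjusted p under 0.05, against 4.63% of tested genes in either direction. In HFD+AOS 16 of 16 lay above HFD (0.56), with 0 called in either comparison. Here 3 reached an unadjusted p under 0.05, against 15% of tested genes in either direction. Sums were 1048.8, 561.3 and 519.5 FPKM in HFD+AOS replicates 1, 2 and 3, against 413.0, 355.0 and 428.0 FPKM in those of HFD.

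Markers of cell types differed between the same groups, and their part in these results was not tested. On HFD against the control 4 of 7 T cell markers were called higher (median 0.69), where 1.46% of tested genes were. Among them was *Cd4* at 61.2 ± 3.74 FPKM on HFD and 38.2 ± 11.2 FPKM in controls (SD, n = 3 each). All calls of this comparison were lost without control replicate 1, with median ratio scaling or with scaling to the total without haemoglobin. T cell markers summed to 384.9 to 406.9 FPKM on HFD, against 172.0, 293.3 and 291.85 FPKM in control replicates 1, 2 and 3. With AOS their sum ran from 320.5 to 354.9 FPKM. Of 7 NK cell markers 1 rose on HFD (*Klrd1*, 0.32, limma adjusted p = 0.0452), and their sum ran from 67.1 to 126.7 FPKM on HFD and from 71.7 to 110.3 FPKM with AOS, against 59.8 to 98.1 FPKM in controls. Of 8 macrophage and monocyte markers 0 passed, with sums of 302 to 455.7 FPKM on HFD and 302.1 to 340.5 FPKM with AOS, against 299 to 360.9 FPKM in controls. Of 7 dendritic cell markers 0 passed, with sums of 73.1 to 77.2 FPKM on HFD and 61.7 to 67.3 FPKM with AOS, against 41.5 to 61 FPKM in controls. B cell markers summed to 2377 to 2973 FPKM on HFD and 2027 to 2301 FPKM with AOS, against 1452 to 2525 FPKM in controls, and 0 of 7 passed. In HFD+AOS-FMT 5 of 7 NK cell markers lay below HFD at an unadjusted p under 0.05, against 9.09% of tested genes, with 0 called. Their sum ran from 56.1 to 71.9 FPKM, against 67.1 to 126.7 FPKM on HFD. In HFD+control-FMT 4 of 7 lay below HFD at an unadjusted p under 0.05, against 4.63% of tested genes in either direction. Of these 0 were called, and the sum ran from 57.9 to 61.8 FPKM. The median log2 difference of the NK cell markers from HFD was −0.52 in HFD+AOS-FMT and −0.67 in HFD+control-FMT. Above HFD in HFD+AOS-FMT lay 0 of 8 macrophage and monocyte markers (median −0.33) and 0 of 7 B cell markers (−0.28). For dendritic cell markers it was 2 of 7 (−0.23) and for T cell markers 1 of 7 (−0.15). In HFD+control-FMT these counts were 2 (−0.17), 0 (−0.17), 2 (−0.04) and 5 (0.03). In HFD+AOS they were 7 (0.20), 0 (−0.35), 1 (−0.07) and 1 (−0.315). Limma called 0 of them in any of these. None of these markers was at 0 throughout a group. Pancreas and fat markers summed to 44.2 FPKM in the lowest library (HFD+control-FMT) and 4495 FPKM in the highest (HFD+AOS), and 0 of 7 passed in any comparison.

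Red cell genes lay on the other side from the members in the comparisons with the control and in those of HFD+AOS-FMT. For HFD+AOS against HFD, 8 of 8 erythroid markers lay higher (median 0.49, 0 called). Of these 2 reached an unadjusted p under 0.05, against 15% of tested genes in either direction. In that comparison 6 of 10 members also lay higher (median 0.11). Of 8 erythroid markers 5 were called lower on HFD (median −1.16), where 2.75% of tested genes were called in either direction. These calls were lost without control replicate 1, with median ratio scaling or with scaling to the total without haemoglobin. Among the 5 was *Trim10* at 39.5 ± 21.0 FPKM on HFD and 107.5 ± 26.7 FPKM in controls (SD, n = 3 each). The sum of the 8 markers ran from 649.6 to 1459 FPKM on HFD and from 1030 to 1520 FPKM with AOS, against 1583 to 2565 FPKM in controls. The sum was 1524 to 1587 FPKM in HFD+AOS-FMT, against 839.4 to 1134 FPKM in HFD+control-FMT. Between those groups 8 of 8 markers lay higher with FMT from AOS donors (median 0.73, 7 at an unadjusted p under 0.05, 0 called in limma), and against HFD 8 of 8 did (0.85, 7 at an unadjusted p under 0.05, 0 called). All 9 neutrophil markers lay lower on HFD (median −2.0) and with AOS (−2.01) at an unadjusted p under 0.05, and limma called 0. Shares of all tested genes at that threshold are not given for these directions of the neutrophil and erythroid markers. Neutrophil markers summed to 598.8 to 1075 FPKM on HFD and 552.5 to 1402 FPKM with AOS, against 791 to 14761 FPKM in controls, the highest being control replicate 1. Haemoglobin shares were 27.4%, 11.0% and 10.8% in HFD replicates 1, 2 and 3 and 23.3%, 25.6% and 17.2% in those of AOS, against 34.4%, 27.1% and 21.5% in those of the control. Scaled to the total without haemoglobin, the members' median was 0.42 for HFD and 0.48 for AOS against the control, and −0.34 for HFD+AOS-FMT against HFD. AOS replicates 1 and 2 (mean z 0.42 and 0.32) and HFD+AOS replicate 1 (0.60, with haemoglobin at 28.1%) stood above HFD replicate 1 (−0.22) and HFD+AOS-FMT replicate 1 (−0.88), whose haemoglobin shares were 27.4% and 26.4%. Over all 18 libraries the 8 erythroid markers had a Pearson r from −0.74 to −0.63 with the members' mean z score. The part of red cell content in the members' values was not tested.

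**Figure D5:**
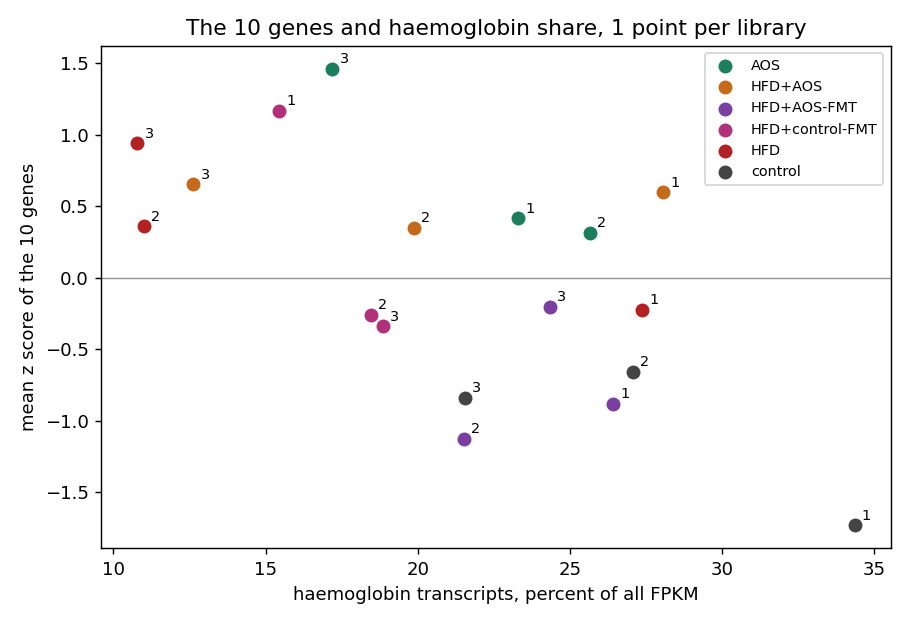
Each point is a library, numbered by replicate. The horizontal axis gives the share of haemoglobin transcripts in all FPKM in percent and the vertical axis the mean z score of the 10 genes. Control replicate 1 has the highest share (34.4%) and the lowest score (−1.73). AOS replicates 1 and 2 and HFD+AOS replicate 1 lie above the libraries of similar share from HFD+AOS-FMT, HFD and the control. The part of the share in the score was not tested.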

How the data were processed

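Spleen RNA of 18 libraries was sequenced by the authors on Illumina libraries made from 1 ug of total RNA, per the labels' protocols. Bowtie 0.12.2 and the build mm10 are named in the submitters' processing notes. The counting program, annotation, read length and filters were not given in the sources used here. The authors deposited a table of 19326 gene symbols by 18 columns, read as FPKM from its values: the coefficient of variation over libraries was 1.49% for sums of value times transcript length and 4.96% for sums of the values alone. RPKM would look the same. Columns were matched to samples by group code and number. The absolute depth is unknown: values have 2 decimals, and the median nonzero value of 179 olfactory receptor genes, which should stand for very few reads, was 0.08 to 0.17 FPKM per library.

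Values were analysed as log2(FPKM + 1). The 12969 genes whose mean reached 1 FPKM in any group were fitted with limma 3.58.1 (trend and robust, statmod 1.5.0, R 4.3.3) in 1 model of 6 groups that leaves 12 residual degrees of freedom. Adjustment was by Benjamini and Hochberg at 0.05 within each of 7 comparisons and the F test. The fit was tested on simulated data in which genes varied independently, so that test does not bear on shifts of composition shared between genes. All 10 members are named in every comparison. For each marker or pathway list up to 4 genes past the threshold, or the 2 with the smallest p, could be named, and likeness was ranked by Pearson r with the members' mean z score. *Gbp10* and *Ifng* belong to those lists. The values of 1 gene that these rules would name are not reported here. The members, lists and tests were chosen with earlier results of these data known. Summaries and figures came from pandas 2.3.3, numpy 2.4.6 and matplotlib 3.10.9 under Python 3.11.15. Same-numbered libraries deviated together, with every pair's correlation over 0.1, for HFD+AOS against HFD only (0.236, 0.268 and 0.191). Alternatives were 2 pseudocounts, 2 filters, 3 scalings, the groups compared alone, a fit without the robust step, the replicate block and leaving out each library.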

Additional observations from a re-analysis of the deposited data

How the results depend on the processing

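The single call, *Irf1* on HFD against the control, depends on the processing. The count of members called there was 1, and 0 with no filter, median ratio scaling, quantile normalization, the groups compared only or scaling to the total without haemoglobin, an alternative chosen after seeing the data. With the replicate block it was 4 (*Gbp4*, *Gbp5*, *Gbp9* and *Irf1*), although these numbers were not shown to pair the libraries. The cause was not tested. Leaving out 1 library at a time gave 0 to 4 members for HFD against the control, 0 to 3 for AOS against the control and 0 to 3 for the F test. The count was 4 without control replicate 3 (*Gbp4*, *Gbp5*, *Gbp9* and *Irf1*, among 3818 genes called) or HFD replicate 1 (*Gbp4*, *Gbp5*, *Gbp6* and *Irf1*, among 1204). The call of *Irf1* was kept without these, HFD+AOS replicate 1 or 3 or HFD+control-FMT replicate 3, and lost without any other library. Over all tested genes there were 357 calls there, 0 with no filter, median ratio scaling, the groups compared only or scaling without haemoglobin, 5 with quantile normalization and 1842 with the replicate block. For the other 5 comparisons the members' count stayed at 0 under every alternative run. The replicate block changed the call of no other member. For HFD+AOS against HFD, where same-numbered libraries deviated together weakly, it called 33 genes, 0 of them members, against 0 genes without it. The block spanned all 6 groups, and HFD+AOS replicate 3 was most like HFD replicate 2, so pairing was not shown here either.

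Among single effects, the sign of *Gbp7* turned for HFD against the control under median ratio scaling (−0.082), quantile normalization (−0.045) and scaling without haemoglobin (−0.012), and ran from −0.022 to 0.11 with a library left out. For HFD+AOS-FMT against HFD+control-FMT *Gbp7* was 0.026, 0.018 and 0.0073 under these scalings and −0.11 to 0.065 with a library left out, and its interaction was 0.021 under median ratio scaling and −0.19 to 0.055 with a library left out. *Gbp2* for HFD+AOS against HFD was 0.0031 under median ratio scaling. With a library left out, HFD+AOS against HFD ran from −0.10 to 0.041 for *Gbp2*, −0.031 to 0.24 for *Gbp3*, −0.16 to 0.026 for *Gbp5*, −0.041 to 0.27 for *Gbp6*, −0.22 to 0.0037 for *Gbp9* and −0.086 to 0.27 for *Cxcl9*. HFD+control-FMT against HFD ran from −0.13 to 0.16 for *Gbp2*, −0.19 to 0.10 for *Gbp3*, −0.20 to 0.0098 for *Gbp4*, −0.13 to 0.34 for *Gbp8* and −0.14 to 0.036 for *Irf1*. *Gbp8* ran from −0.37 to 0.10 for HFD+AOS-FMT against HFD and from −0.38 to 0.089 for the interaction. None of these passed in limma. No member changed sign for AOS against the control. Precision is limited by 3 libraries per group, and the unknown depth allows no counting error.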
